A study of Mus musculus with 4 samples.

Results

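A set of 10 genes of the machinery that senses nucleic acids in the cytosol was described in brain microglia of mice, by group and by cluster of cells: Ifih1, Dhx58, Mavs, Zbp1, Cgas, Trex1, Samhd1, Adar, Eif2ak2 and Aim2. The rule that picks them is a list of gene symbols and applies no measured value. The list was chosen with earlier results of these data known. Of the 10 genes, 9 were among the 19737 genes of the deposited matrix. Trex1 was not analysed here. The single-cell RNA-seq data held 74758 cells of 20 mice, 4 in each of 5 groups, and the unit of every comparison was the mouse, after the unique molecular identifiers (UMIs, counted transcript molecules) of its cells were summed.

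WT;TfR mu/hu mice received ATV:ISO or ATV:4D9, and AppSAA;TfR mu/hu mice received ATV:ISO, 4D9 or ATV:4D9, each intravenously at 10 mg/kg, 1 day before collection. 4D9 is an antibody that activates TREM2, a lipid receptor of microglia. ATV:4D9 carries an Fc engineered to bind the transferrin receptor and so to cross the blood–brain barrier, and ATV:ISO is the isotype control in that format. All mice, controls included, carried the human receptor domain in the mouse transferrin receptor (TfR mu/hu), and AppSAA mice carry familial Alzheimer mutations knocked into the mouse App gene, which leads to amyloid deposits. An 8 month age is listed for male mice of these lines, with coverage of the WT mice unclear, and 1 WT ATV:ISO mouse, that of pool 4, is recorded as female. The isotype arm is labelled ATV-DNP02, which was read as ATV:ISO although no text says so. The sources also disagree on the sort, CD11b alone or CD45 and CD11b, and on the tissue, cortex alone or cortex with hippocampus. The mice were spread over 4 pools, with a mouse of each group in every pool.

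These proteins recognise DNA or RNA where it should be scarce, in the cytosol, and answer viral infection or a cell's own misplaced nucleic acids. RIG-I-like receptors bind double-stranded RNA and signal through MAVS on mitochondria, and cGAS binds double-stranded DNA and signals through the messenger cGAMP and STING, both towards TBK1, IRF3 and type I interferon. Several of the sensor genes are themselves induced by interferon, and in microglia a state rich in interferon-stimulated transcripts is known from ageing, infection and amyloid models.

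By role, Ifih1 encodes MDA5, a receptor of long double-stranded RNA, at chr2:62595798-62646255 on the minus strand of mm10. Dhx58 (chr11:100694884-100704271, minus strand) encodes LGP2, which modulates RIG-I-like receptors and has no signalling domain of its own. Mavs (chr2:131234063-131248025, plus strand) encodes the adaptor of RIG-I and MDA5. Eif2ak2 (chr17:78852564-78882573, minus strand) encodes PKR, which halts translation on binding double-stranded RNA, and Zbp1 (chr2:173206612-173218923, minus strand) encodes a sensor of left-handed nucleic acid that can start RIPK3-dependent cell death. Adar (chr3:89715022-89753446, plus strand) encodes an editor of double-stranded RNA that keeps cellular RNA from being sensed. Cgas lies at chr9:78430526-78443237 on the minus strand, and Aim2 (chr1:173350879-173466040, plus strand) encodes a DNA sensor that assembles an inflammasome. Samhd1 (chr2:157097533-157135265, minus strand) encodes a deoxynucleotide hydrolase that restrains nucleic acid sensing, as does TREX1, a DNA exonuclease. All 9 are annotated as protein coding, and the spans are those of the whole genes, exons and introns, in GENCODE vM21. No other annotated gene shares exons with them on the same strand. On the opposite strand, Dhx58 overlaps exons of Dhx58os, with 3 UMIs in all cells, and Adar overlaps Chrnb2, with 519. Cgas overlaps the pseudogene Gm8093, and Eif2ak2 overlaps Gm26637 and n-R5s29, for which no UMI value was used here. The strand setting of the counting is not given in the sources used here.

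Promoter windows of 300 bases, 250 before and 50 after the start, came from RefSeq (GRCm38.p6) and matched 7 of the 9 measured genes, with Dhx58 and Zbp1 not matched. The 4 windows below are shown because they hold, in capitals, a match of GAAANNGAAA, the core that IRF factors and the interferon complex ISGF3 bind, or of TTCNNNGAA, the core that STAT dimers bind. Both strands were searched, and TTCNNNGAA reads the same on both. The Ifih1 and Eif2ak2 windows hold GAAANNGAAA, which 3.44% of 32851 windows hold, and the Samhd1 and Eif2ak2 windows and 1 of 3 Adar windows hold TTCNNNGAA, found in 8.30% of them. Adar lies on the plus strand. The other genes lie on the minus strand, so their sequences read from the higher coordinate to the lower. A match is a description of letters and does not show that a factor binds there.
Ifih1, chr2:62646206-62646505: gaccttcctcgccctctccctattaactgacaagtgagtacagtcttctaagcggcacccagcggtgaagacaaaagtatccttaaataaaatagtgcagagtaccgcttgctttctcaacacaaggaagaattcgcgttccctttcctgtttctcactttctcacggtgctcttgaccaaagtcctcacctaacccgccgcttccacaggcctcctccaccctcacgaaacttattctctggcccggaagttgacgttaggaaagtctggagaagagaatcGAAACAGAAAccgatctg
Eif2ak2, chr17:78882523-78882822: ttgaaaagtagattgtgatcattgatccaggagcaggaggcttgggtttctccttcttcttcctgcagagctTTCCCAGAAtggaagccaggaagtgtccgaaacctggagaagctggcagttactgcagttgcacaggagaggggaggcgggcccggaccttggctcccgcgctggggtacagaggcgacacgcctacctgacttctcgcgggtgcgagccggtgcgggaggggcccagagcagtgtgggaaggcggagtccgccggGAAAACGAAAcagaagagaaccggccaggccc
Samhd1, chr2:157135047-157135346: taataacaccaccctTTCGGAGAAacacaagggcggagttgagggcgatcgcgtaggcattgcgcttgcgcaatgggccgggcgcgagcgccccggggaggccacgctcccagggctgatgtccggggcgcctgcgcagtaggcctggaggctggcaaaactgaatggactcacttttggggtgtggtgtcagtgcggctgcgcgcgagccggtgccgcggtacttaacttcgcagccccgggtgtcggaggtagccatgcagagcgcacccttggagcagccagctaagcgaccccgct
Adar, chr3:89730468-89730767: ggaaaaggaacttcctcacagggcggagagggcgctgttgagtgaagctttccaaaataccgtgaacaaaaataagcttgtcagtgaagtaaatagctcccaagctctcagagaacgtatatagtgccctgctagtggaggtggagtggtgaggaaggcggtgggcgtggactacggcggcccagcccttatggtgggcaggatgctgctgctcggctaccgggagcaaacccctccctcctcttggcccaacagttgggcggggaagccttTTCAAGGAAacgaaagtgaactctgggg
The match lies 33 bases after the annotated start in Ifih1 and 19 bases after it in Eif2ak2, where a further match lies 178 bases before the start. In Samhd1 it lies 235 bases before, and in Adar 23 bases after, the RefSeq start that the window was built on. Both of these starts lie inside the gene span given above and not at its edge. The levels of these genes by group are given below.

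Levels are given as CPM, UMIs of the gene per 1000000 UMIs of the mouse, and fold changes on the log2 scale come from edgeR's quasi-likelihood test with Benjamini-Hochberg adjustment over 14058 genes. A called gene is one with an adjusted p under 0.05. Total UMIs per mouse ran from 17150296 to 102446549 and cells from 2193 to 6126, and each of the 9 genes had between 18822 UMIs (Mavs) and 77707 UMIs (Eif2ak2) in all cells. The median UMIs per cell of a mouse were 6859 to 8173.5 under WT ATV:ISO and 13479 to 17290 under WT ATV:4D9. In AppSAA mice they were 8444.5 to 9883.5 under ATV:ISO, 8293 to 11552.5 under 4D9 and 13560 to 16475 under ATV:4D9. A CPM is therefore a share of a pool of transcripts that was larger per cell with ATV:4D9, and UMIs per cell are given where the scales part. Less RNA of a gene in every cell and fewer cells that carry it cannot be told apart in sums over a whole mouse. Microglial markers summed to 29982 to 32580 CPM in WT ATV:ISO mice and 21917 to 26520 CPM in the others, and markers of some other cell type outnumbered the microglial ones, by UMIs, in 3 cells. A cell barcode was shared by 2 or more pools in 543 of 74212 distinct barcodes.

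In AppSAA mice, ATV:4D9 raised 7 of the 9 genes over ATV:ISO and lowered 0, where 27.9% of all tested genes were called higher and 27.1% lower. The median log2 fold change was 1.28 over the 9 genes and −0.03 over all genes tested. Zbp1 had the largest rise, 7.35-fold, followed by Dhx58 (3.45-fold), Eif2ak2 (2.76-fold), Ifih1 (2.48-fold), Cgas (2.43-fold), Adar (1.64-fold) and Samhd1 (1.37-fold). The adaptor Mavs and the inflammasome sensor Aim2 were not called. In WT mice ATV:4D9 raised 5 of the 9 (Zbp1, Cgas, Eif2ak2, Dhx58 and Ifih1) and lowered 2 (Samhd1 and Mavs), where 30.8% of all genes were called higher and 32.5% lower. The median there was 0.48 over the 9 genes and −0.05 over all. Both shares of all genes are large, so the counts alone do not set these genes apart.

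Ifih1, the long-RNA receptor, was at 19.3, 22.5, 22.9 and 25.8 CPM in WT ATV:ISO mice of pools 1 to 4 and at 31.7, 24.5, 29.5 and 30.7 CPM with ATV:4D9. In AppSAA mice it was at 23.0, 24.4, 28.2 and 24.8 CPM with ATV:ISO, 20.2, 22.5, 25.1 and 26.2 CPM with 4D9, and 59.5, 53.8, 68.0 and 55.2 CPM with ATV:4D9. The 4 AppSAA ATV:4D9 mice stood above all 16 others, while the WT groups overlapped, the pool 2 mouse under ATV:4D9 lying below the highest control. The rise was 0.48 ± 0.10 (log2, n = 4 per group; errors of log2 values are SE and those of levels SD) in WT mice (edgeR adjusted p = 0.000417) and 1.31 ± 0.10 in AppSAA mice (edgeR adjusted p = 1.55e-09). The test of the difference between these rises gave 0.83 ± 0.14 (edgeR adjusted p = 0.000872).

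Dhx58, the modulator LGP2, was at 9.27, 7.91, 9.82 and 10.2 CPM in WT ATV:ISO mice and 24.0, 15.4, 15.7 and 16.9 CPM in WT ATV:4D9 mice, where the pool 1 mouse stood apart. In AppSAA mice it was at 10.2, 9.96, 12.7 and 10.9 CPM with ATV:ISO, 10.4, 9.77, 9.47 and 9.80 CPM with 4D9, and 40.9, 31.4, 39.6 and 31.2 CPM with ATV:4D9. The ATV:4D9 groups did not overlap their controls or each other. The rise was 1.08 ± 0.16 in WT (edgeR adjusted p = 6.59e-06) and 1.79 ± 0.15 in AppSAA mice (6.44e-09), and the difference between them was 0.71 ± 0.22 (0.0462). That last call was lost in 14 of the 20 fits that each left out 1 mouse, with adjusted p up to 0.0964.

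Mavs, the adaptor gene, had small differences. In WT ATV:ISO mice it was at 22.9, 21.5, 25.8 and 25.9 CPM and in WT ATV:4D9 mice at 16.4, 19.0, 19.1 and 19.6 CPM, so the groups did not overlap. AppSAA mice had 16.4, 16.7, 19.7 and 19.5 CPM with ATV:ISO, 16.4, 15.9, 20.8 and 20.6 CPM with 4D9, and 14.3, 16.1, 18.6 and 17.4 CPM with ATV:4D9, groups that overlapped throughout. In WT mice the share of Mavs fell by 0.26 ± 0.08 on the log2 scale (edgeR adjusted p = 0.00511). Its UMIs per cell were 0.208 ± 0.034 (SD, n = 4) with ATV:ISO and 0.312 ± 0.049 with ATV:4D9, so its share was lower while its UMIs per cell were higher. Without the filter on low counts the adjusted p was 0.0571. In AppSAA mice Mavs differed by −0.05 (95% interval −0.20 to 0.09, edgeR adjusted p = 0.565).

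Eif2ak2, which encodes PKR, was at 36.8, 41.9, 39.5 and 47.0 CPM in WT ATV:ISO mice and 85.0, 84.4, 72.4 and 80.1 CPM in WT ATV:4D9 mice. AppSAA mice had 41.7, 51.0, 52.0 and 45.7 CPM with ATV:ISO, 35.8, 43.2, 43.4 and 45.7 CPM with 4D9, and 120, 129, 134 and 117 CPM with ATV:4D9. Both ATV:4D9 groups lay above every mouse of the other 3 groups and apart from each other. The rise was 1.08 ± 0.09 in WT (edgeR adjusted p = 2.97e-09) and 1.46 ± 0.09 in AppSAA mice (4.52e-11). The difference between the rises, 0.38 ± 0.13, was not called (edgeR adjusted p = 0.0627) and was called at 0.39 with the pool as a block (0.0165) and in 2 of the 20 fits that left out a mouse.

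Zbp1, the sensor of left-handed nucleic acid, had its lowest mean in WT ATV:ISO mice, with 7.17, 5.42, 5.17 and 8.62 CPM. WT ATV:4D9 mice had 43.4, 19.6, 27.1 and 34.0 CPM, and in AppSAA mice the values were 11.0, 13.5, 17.2 and 12.3 CPM with ATV:ISO, 11.7, 8.30, 11.6 and 12.1 CPM with 4D9, and 106, 79.7, 112 and 78.5 CPM with ATV:4D9. The AppSAA ATV:4D9 mice were above all others and the WT ATV:4D9 mice came next, without overlap. The rise was 2.36 ± 0.25 in WT, or 5.12-fold (edgeR adjusted p = 6.59e-08), and 2.88 ± 0.23 in AppSAA mice (2.50e-09). The difference between the rises was 0.52 with a 95% interval of −0.12 to 1.16 (edgeR adjusted p = 0.388), so a larger rise in either genotype was not resolved on this scale.

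Adar, whose editing keeps self RNA unsensed, was at 17.5, 18.2, 25.1 and 24.4 CPM in WT ATV:ISO mice and 19.4, 18.1, 21.6 and 23.6 CPM in WT ATV:4D9 mice. AppSAA mice had 17.8, 18.9, 24.5 and 23.7 CPM with ATV:ISO, 17.6, 16.3, 23.0 and 23.4 CPM with 4D9, and 28.0, 28.3, 41.6 and 34.9 CPM with ATV:4D9. Pools 3 and 4 were high in every group, and the AppSAA ATV:4D9 mice were above all others. The rise in AppSAA mice was 0.72 ± 0.13 (edgeR adjusted p = 9.64e-05), and in WT mice the difference was 0.08 (95% interval −0.18 to 0.34, edgeR adjusted p = 0.623). The difference between genotypes was 0.64 ± 0.18 (edgeR adjusted p = 0.0326), called in 11 of the 20 fits that left out a mouse.

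**Figure D1:**
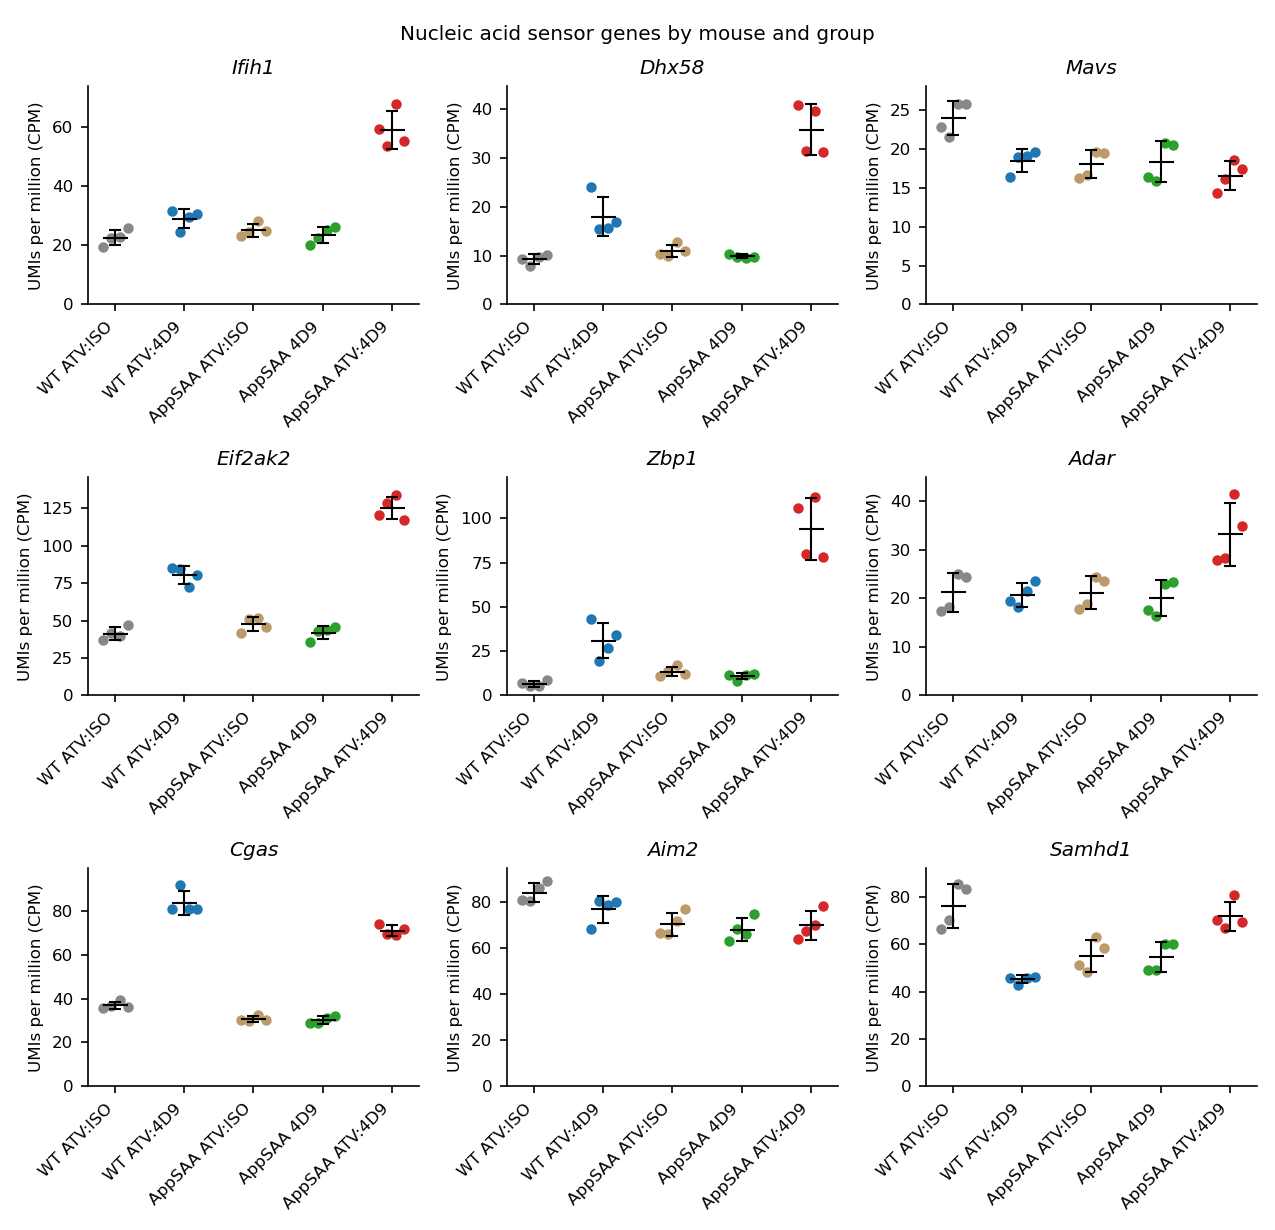
Level in CPM (UMIs of the gene per 1000000 UMIs of the mouse, linear axis from 0) of the 9 measured genes in each of the 20 mice, by group, with the group mean and SD. Zbp1, Dhx58, Eif2ak2 and Ifih1 are highest in all 4 AppSAA ATV:4D9 mice, Cgas is high in both ATV:4D9 groups, and Mavs and Aim2 vary little between groups.

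Cgas, the DNA sensor upstream of STING, rose in both genotypes. It was at 35.8, 36.5, 39.2 and 36.2 CPM in WT ATV:ISO mice and 80.6, 91.5, 80.6 and 80.8 CPM in WT ATV:4D9 mice. AppSAA mice had 30.3, 29.6, 32.5 and 30.4 CPM with ATV:ISO, 28.7, 28.9, 31.1 and 32.3 CPM with 4D9, and 74.0, 69.5, 68.9 and 71.5 CPM with ATV:4D9. No ATV:4D9 mouse overlapped any other group, and unlike the RNA sensors the WT ATV:4D9 mice had the higher CPM. The rise was 1.29 ± 0.07 in WT (edgeR adjusted p = 1.87e-12) and 1.28 ± 0.07 in AppSAA mice (2.90e-12), and their difference was −0.01 (95% interval −0.19 to 0.17, edgeR adjusted p = 0.975).

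Aim2, the inflammasome DNA sensor, was at 80.6, 80.5, 86.0 and 88.9 CPM in WT ATV:ISO mice and 68.2, 80.2, 78.8 and 79.9 CPM in WT ATV:4D9 mice. AppSAA mice had 66.6, 66.3, 71.6 and 76.8 CPM with ATV:ISO, 62.9, 68.3, 66.1 and 74.6 CPM with 4D9, and 63.8, 67.3, 69.9 and 78.2 CPM with ATV:4D9. The AppSAA groups overlapped, and the WT ATV:ISO mice were above the WT ATV:4D9 mice in CPM. After edgeR's scaling the WT difference was −0.02 (95% interval −0.13 to 0.10, adjusted p = 0.828), and other scalings gave a value above 0. In AppSAA mice it was 0.06 (−0.06 to 0.17, edgeR adjusted p = 0.414). The UMIs per cell of Aim2 were 0.726 ± 0.095 and 1.29 ± 0.19 in WT and 0.813 ± 0.11 and 1.20 ± 0.16 in AppSAA mice, with ATV:ISO and ATV:4D9. They were thus higher with ATV:4D9 in both genotypes, while its share in plain CPM was lower in WT mice.

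Samhd1, the deoxynucleotide hydrolase, was called in opposite directions in the 2 genotypes. WT ATV:ISO mice had 66.3, 70.1, 85.3 and 83.3 CPM and WT ATV:4D9 mice 46.0, 42.6, 45.9 and 46.2 CPM. AppSAA mice had 51.1, 48.1, 62.9 and 58.6 CPM with ATV:ISO, 49.2, 49.2, 60.3 and 60.1 CPM with 4D9, and 70.2, 66.7, 80.9 and 69.4 CPM with ATV:4D9. ATV:4D9 mice were below their controls in all 4 pools in WT and above them in all 4 pools in AppSAA mice, with no overlap between groups in either. Samhd1 fell by 0.63 ± 0.08 on the log2 scale in WT (edgeR adjusted p = 1.86e-06) and rose by 0.46 ± 0.08 in AppSAA mice (0.000123), and the difference was 1.09 ± 0.12 (edgeR adjusted p = 1.06e-05). In UMIs per cell the WT values were 0.661 ± 0.13 and 0.760 ± 0.10, so the lower share in WT did not come with a lower mean per cell. In AppSAA mice they were 0.639 ± 0.12 and 1.23 ± 0.15.

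Across these tests, 4 of the 9 genes (Samhd1, Ifih1, Dhx58 and Adar) had a called difference between genotypes in the effect of ATV:4D9, all with the higher value in AppSAA mice, where 3.79% of all genes were called higher and 5.35% lower. Under ATV:4D9 itself, AppSAA mice had 6 of 9 genes called higher than WT mice and 0 lower, where 7.84% of all genes were called higher and 3.98% lower. Those were Zbp1 by 1.73 ± 0.22, Ifih1 by 1.16 ± 0.10, Dhx58 by 1.13 ± 0.15, Adar by 0.82 ± 0.13, Samhd1 by 0.81 ± 0.08 and Eif2ak2 by 0.77 ± 0.09, with edgeR adjusted p from 1.43e-07 (Ifih1) to 0.000151 (Adar). Cgas, Mavs and Aim2 differed by −0.09, −0.02 and 0.00. These comparisons share mice, so they do not count as separate lines of evidence.

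Between AppSAA and WT mice under ATV:ISO, 3 of the 9 were called higher (Zbp1, Eif2ak2 and Ifih1) and 2 lower (Samhd1 and Mavs), where 14.4% of all genes were called higher and 13.7% lower. Zbp1 had a mean of 6.59 ± 1.62 CPM in WT and 13.5 ± 2.71 CPM in AppSAA mice, without overlap, a rise of 1.21 ± 0.25 (edgeR adjusted p = 0.000836). Eif2ak2 rose by 0.39 ± 0.09 (0.00263) and Ifih1 by 0.33 ± 0.10 (0.0204), with overlapping groups for both. Samhd1 fell by 0.28 ± 0.08 (0.0165) and Mavs fell by 0.23 ± 0.08 (0.0294). In plain CPM the differences within pools were 0.25, 0.12, 0.29 and −0.06 for Ifih1 and 0.18, 0.28, 0.39 and −0.04 for Eif2ak2. In plain CPM Zbp1 was higher and Samhd1 and Mavs lower in all 4 pools. Dhx58, at 0.42 ± 0.16, was not called (0.0560), but this rested on the processing, since 5 of the 8 alternatives that left out no mouse and 3 of the 20 fits that did called it. The 5 were the pool as a block (0.42, edgeR adjusted p = 0.0111), no filter on low counts (0.47, 0.0427), cells of 1000 to 25000 UMIs (0.45, 0.0450), DESeq2-type scaling (0.45, 0.0471) and DESeq2 (0.45, 0.0359). Adar was called with the block alone (0.18, edgeR adjusted p = 0.0313). The values also rest on the scaling: in plain CPM the Adar differences within pools were 0.02, 0.05, −0.04 and −0.05, neither up nor down throughout. Cgas, at −0.08 after scaling, was lower in plain CPM in all 4 pools by −0.24 to −0.30, and Aim2, at −0.07, by −0.21 to −0.28, both without overlap and neither called. The calls of Ifih1, Samhd1 and Mavs were lost in 2, 3 and 6 of the 20 fits that left out a mouse, and that of Samhd1 and that of Mavs were each lost without the WT ATV:ISO mouse recorded as female. They also changed with the processing: Ifih1 was not called without cluster 5 (adjusted p = 0.0584) or with equal weight per cell (0.138), Samhd1 not without the filter (0.0752) or with cells of 1000 to 25000 UMIs (0.0640), and Mavs not with those (0.145 and 0.0779) or with DESeq2-type scaling (0.0542).

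The antibody without the transport vehicle left the 9 genes unresolved from control. Between AppSAA mice given 4D9 and ATV:ISO, 0 of the 9 were called by edgeR, and 0 had an unadjusted p under 0.05, the lowest being 0.0662. Of all 14058 genes, 0 were called (0%), with 79 at an unadjusted p under 0.05, and DESeq2 called 1 gene and limma-voom 0. Chance alone would put a share of about 0.05 of the genes there. The 79 genes fall well short of that, so this fit, which has no pool term, was conservative here. With the pool as a block, edgeR gave 280 genes at an unadjusted p under 0.05, still below that share, and called 0. The cause was not tested, and the intervals below may be too wide. The log2 differences ran from −0.30 (Zbp1, 95% interval −0.74 to 0.14) to 0.04 (Mavs). For Cgas the interval was −0.14 to 0.12 and for Ifih1 it was −0.29 to 0.11. Between ATV:4D9 and 4D9 in AppSAA mice the same 7 genes as against ATV:ISO were called higher and 0 lower, where 27.6% of all genes were called higher and 26.7% lower. These were Zbp1 (3.18), Dhx58 (1.93), Eif2ak2 (1.64), Ifih1 (1.40), Cgas (1.30), Adar (0.79) and Samhd1 (0.46), with Mavs at −0.09 and Aim2 at 0.10, the latter called only with the pool as a block (edgeR adjusted p = 0.0233). Both comparisons use the same ATV:4D9 mice.

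**Figure D2:**
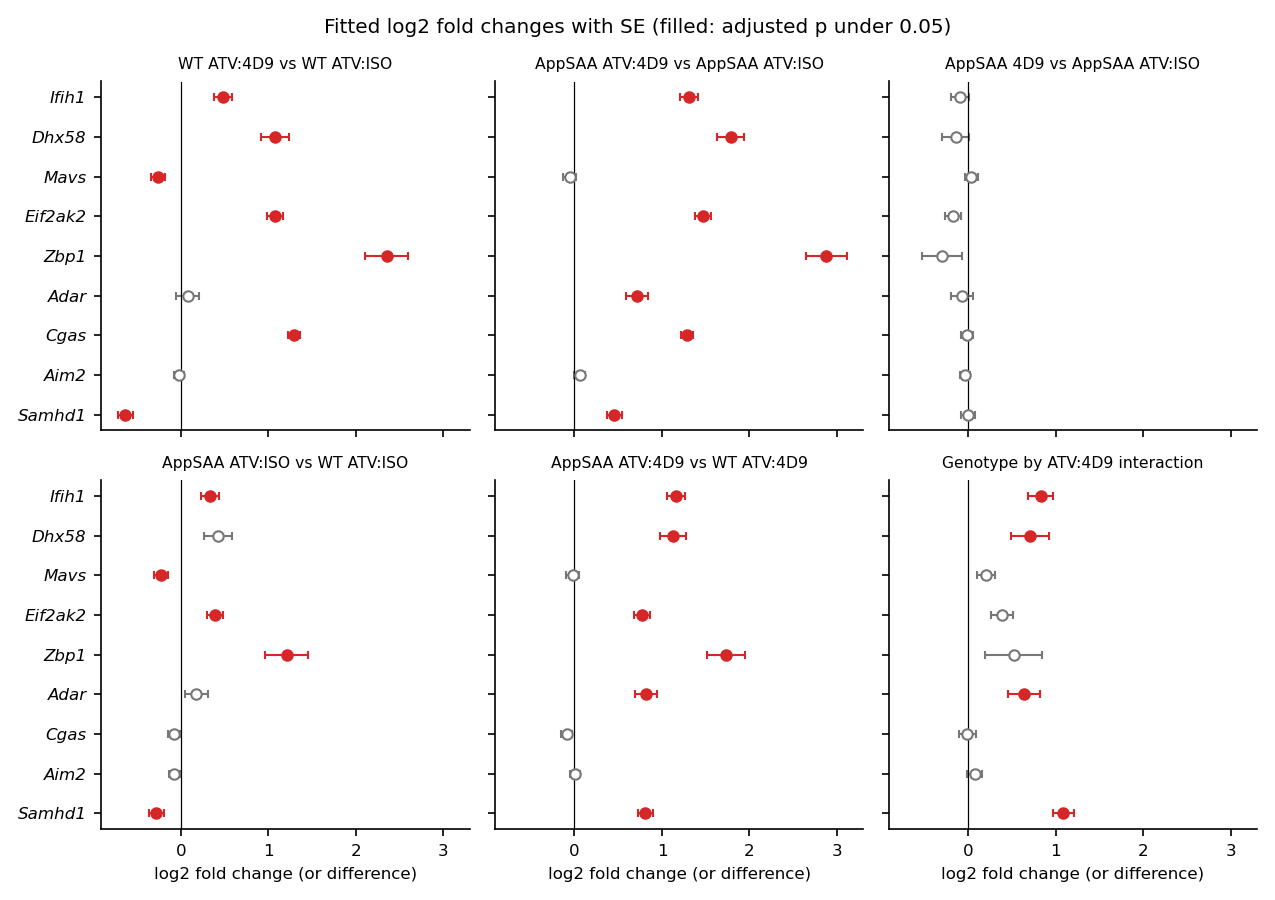
Log2 fold change of each measured gene with its SE (bars) in 6 comparisons, from edgeR's fit over all 20 mice, with filled points for an adjusted p under 0.05. Samhd1 lies at −0.63 for ATV:4D9 in WT and 0.46 in AppSAA mice, Cgas at 1.29 and 1.28, and no point is filled for 4D9 against ATV:ISO.

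The deposited annotation puts each cell in 1 of 6 clusters, numbered 0 to 5 without names, and the levels per cluster are a description with no test, since the clusters were drawn from the expression of these same cells. Which genes entered the clustering is not given in the sources used here. By gene lists that hold no sensor gene, cluster 5 was highest in 12 interferon-stimulated genes, with a median log2 ratio to cluster 0 of 4.90 against 1.47 in cluster 2 and 1.37 in cluster 4. Cluster 4 was highest in cell cycle genes (4.34), cluster 1 in genes of disease-associated microglia (3.94) and cluster 3 in immediate early genes (3.98), and cluster 0 was highest in homeostatic genes. Cluster 5 was also second in the disease-associated genes (2.48) and highest in the 3 monocyte markers, which summed to 29.9 CPM there and 4.40 to 6.65 CPM in the other clusters. Of these, Plac8 had a mean of 26.5 CPM in cluster 5, while Ccr2 had 2.60 and Ly6c2 0.787 CPM. The part of these markers in the levels below was not tested. Each cluster's level below is the median over mice with at least 20 cells in it, 16 to 20 mice.

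The RNA sensors and effectors were concentrated in cluster 5. Ifih1 had medians of 23.7, 22.1, 24.1, 23.6, 20.6 and 146 CPM in clusters 0 to 5, over mice of all groups. In AppSAA ATV:4D9 mice its means in clusters 0 to 4 were 22.6, 26.9, 37.4, 28.0 and 37.3 CPM, below the 146 CPM of cluster 5. Dhx58 had 9.77, 9.45, 12.7, 11.2, 15.6 and 69.7 CPM, and Zbp1 had 5.03, 12.5, 24.8, 5.65, 19.8 and 185 CPM, with clusters 1, 2 and 4 above the homeostatic clusters 0 and 3. Eif2ak2 had 50.3, 38.7, 58.9, 45.1, 72.9 and 223 CPM and Adar 20.3, 19.3, 20.6, 22.9, 21.7 and 62.5 CPM. Cluster 5 was above cluster 0 in 17 of 17 mice for each of these 5 genes and for Samhd1, with median log2 ratios of 4.90 (Zbp1), 2.69 (Dhx58), 2.51 (Ifih1), 2.06 (Eif2ak2), 1.42 (Adar) and 1.25 (Samhd1).

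The other genes spread differently. Cgas had medians of 36.2, 22.1, 55.7, 37.7, 86.7 and 80.0 CPM, with clusters 4 and 5 above the rest. Which of these 2 had the higher mean differed by group: 98.9 CPM in cluster 4 and 124 CPM in cluster 5 in WT ATV:4D9 mice, 93.2 and 80.5 CPM in AppSAA ATV:4D9, 57.6 and 58.1 CPM in AppSAA ATV:ISO and 56.7 and 61.9 CPM in AppSAA 4D9 mice. Cgas was higher in cluster 4 than in cluster 0 in 16 of 16 mice. Samhd1 had 75.9, 39.7, 47.0, 64.4, 34.4 and 187 CPM, lowest by this median in cluster 4, where it was below cluster 0 in all 16 mice, and highest in cluster 5. Aim2 had 92.2, 50.04, 68.6, 87.3, 68.2 and 90.2 CPM, lowest in cluster 1, with cluster 5 near the level of clusters 0 and 3. Mavs had 23.7, 14.5, 19.4, 23.5, 17.2 and 17.2 CPM, its highest medians in clusters 0 and 3. Ifih1, Dhx58, Eif2ak2, Zbp1, Adar and Samhd1 had their highest mean in cluster 5 in the 4 groups with 4 mice there, and in the 1 WT ATV:ISO mouse with enough cells (31). The cluster with the highest mean of Cgas, Mavs or Aim2 differed by group, where the WT ATV:ISO value in cluster 5 and the WT ATV:4D9 value in cluster 1 (21 cells) were each from 1 mouse.

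**Figure D3:**
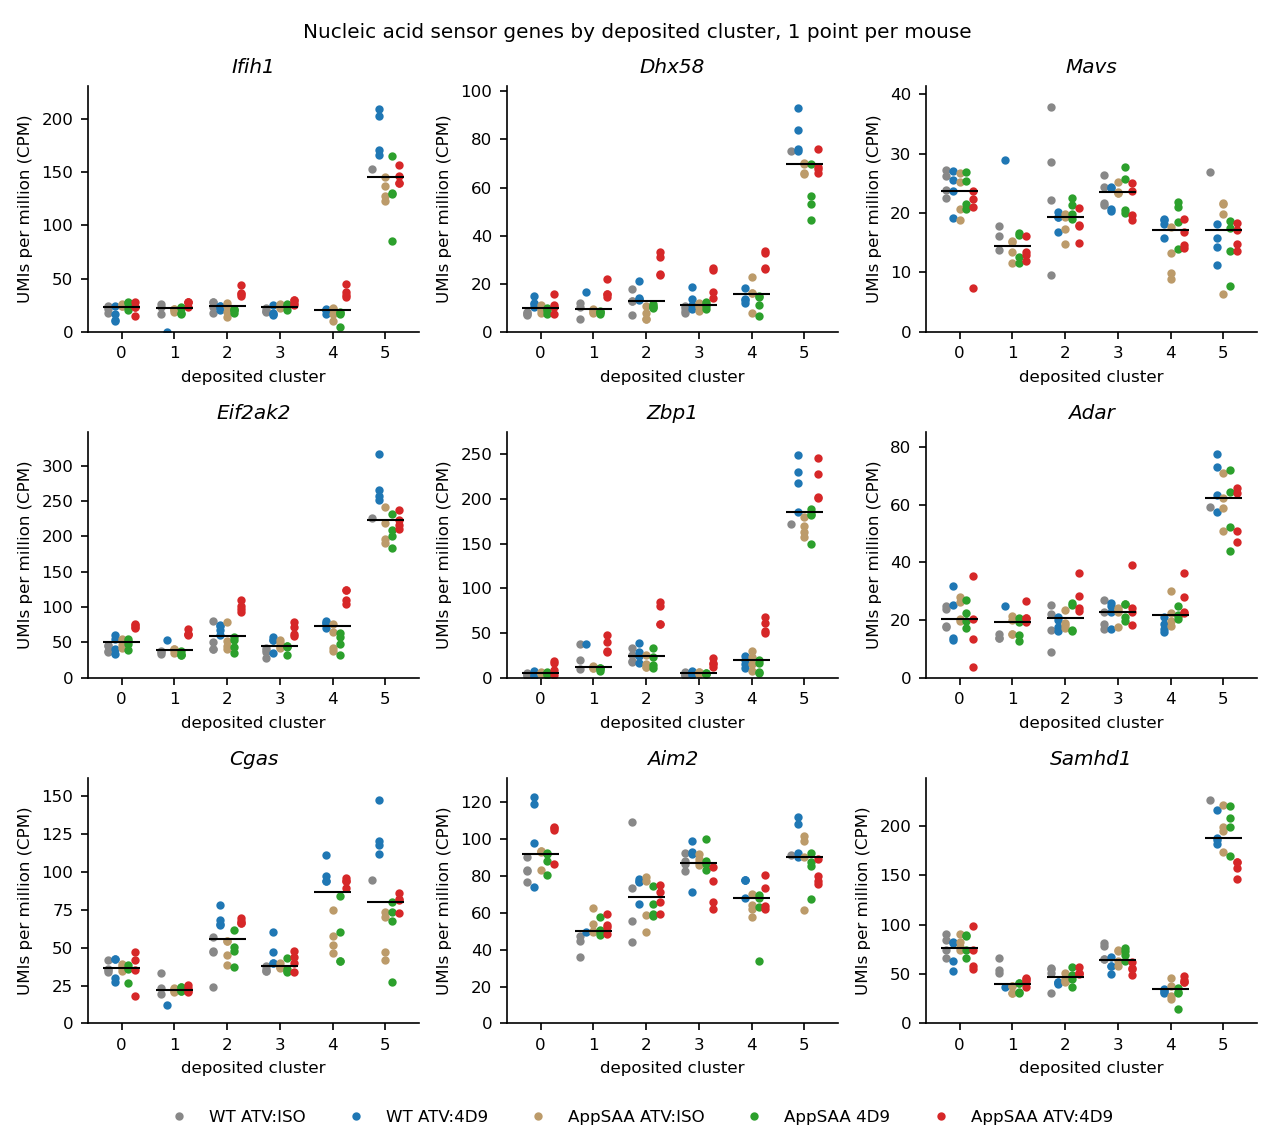
Level in CPM of the 9 measured genes in deposited clusters 0 to 5, each point the summed cells of 1 mouse with at least 20 cells in the cluster and each line the median. Cluster 5 has the highest median in 6 panels, Cgas is high in clusters 4 and 5 (medians 86.7 and 80.0), and the median of Mavs is highest in clusters 0 and 3.

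Cluster 5 held 0.737% of cells in WT ATV:ISO mice, 4.21% in WT ATV:4D9, 2.48% in AppSAA ATV:ISO, 1.504% in AppSAA 4D9 and 22.4% ± 4.26 (SD, n = 4) in AppSAA ATV:4D9 mice. For 8 of the 9 genes the cluster held a larger share of UMIs than of cells in each group, and Mavs went the other way in some, with 20.9% of UMIs in AppSAA ATV:4D9 mice. In AppSAA ATV:4D9 mice it held 53.2% of Ifih1 UMIs, 50.7% of Zbp1, 47.3% of Samhd1, 42.1% of Dhx58, 38.3% of Eif2ak2 and 37.1% of Adar, against 25.0% of Aim2, 24.5% of Cgas and 20.9% of Mavs. In WT ATV:4D9 mice the highest shares were 33.5% of Zbp1, 29.4% of Ifih1, 21.0% of Dhx58 and 19.6% of Samhd1, and Mavs had 3.64%. The clusters come from the same cells, so these shares describe where the UMIs sat and are not tested.

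**Figure D4:**
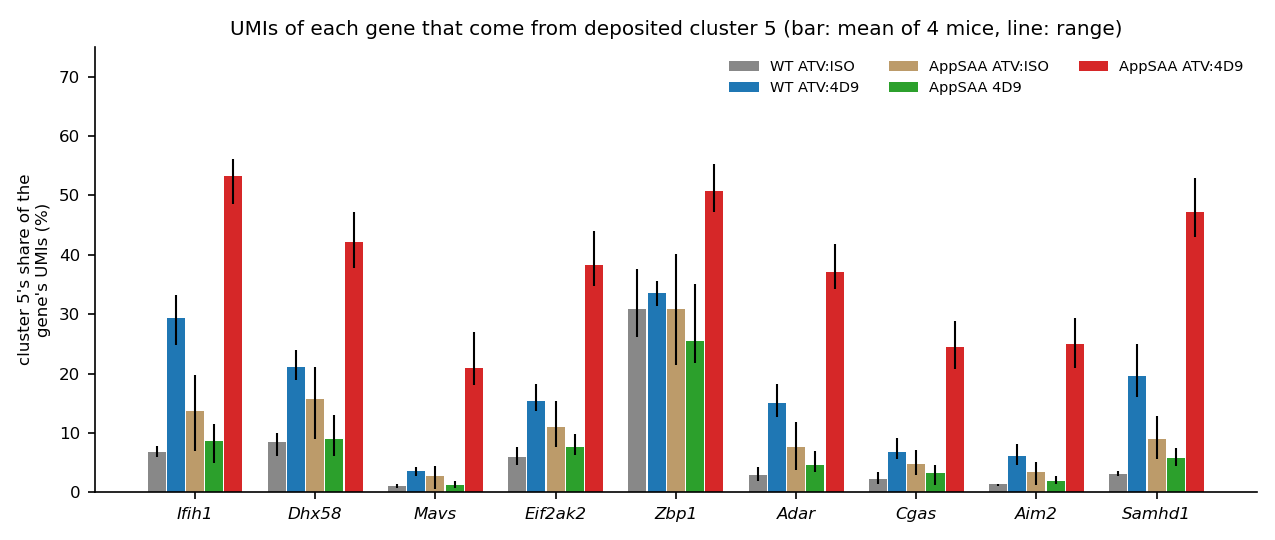
Share of each gene's UMIs, in percent, that came from deposited cluster 5, by group, with bars for the mean of 4 mice and lines for their range. In AppSAA ATV:4D9 mice the cluster holds 22.4% of cells and from 20.9% (Mavs) to 53.2% (Ifih1) of a gene's UMIs.

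Without the cells of cluster 5, the rise of Samhd1 in AppSAA ATV:4D9 mice was absent: the log2 difference from ATV:ISO was −0.04 (edgeR adjusted p = 0.682) in place of 0.46. In WT mice Samhd1 then fell by 0.85 in place of 0.63, and the difference between genotypes was 0.81 (edgeR adjusted p = 5.72e-05). Ifih1 was not called in WT mice (0.13, edgeR adjusted p = 0.243) and its AppSAA rise was 0.73 in place of 1.31. Adar rose by 0.46 in place of 0.72 in AppSAA mice (0.00436). The other called genes kept most of their size in AppSAA mice, with Zbp1 at 2.72, Dhx58 at 1.55, Cgas at 1.25 and Eif2ak2 at 1.24. The differences between genotypes of Dhx58 (0.64, edgeR adjusted p = 0.0924) and Adar (0.52, 0.0938) were no longer called, while that of Ifih1 was (0.60, 0.00581). Cluster 5 was drawn from expression and held 22.4% of cells in AppSAA ATV:4D9 mice and 2.48% in AppSAA ATV:ISO mice. For genes high in that cluster, such as Samhd1, Ifih1 and Adar, a smaller AppSAA value without it follows from the choice of cells. These values describe the remaining cells and are not a test of what cluster 5 contributes. Other clusters also differed in their share of cells. In AppSAA mice cluster 0 held 30.8% with ATV:ISO and 2.52% with ATV:4D9, cluster 2 held 2.34% and 35.4%, and cluster 4 0.949% and 22.4%. In WT mice the same clusters held 60.4% and 3.11%, 1.35% and 47.8%, and 0.351% and 40.0%. The part of these shares in the values, with or without cluster 5, was not tested.

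**Figure D5:**
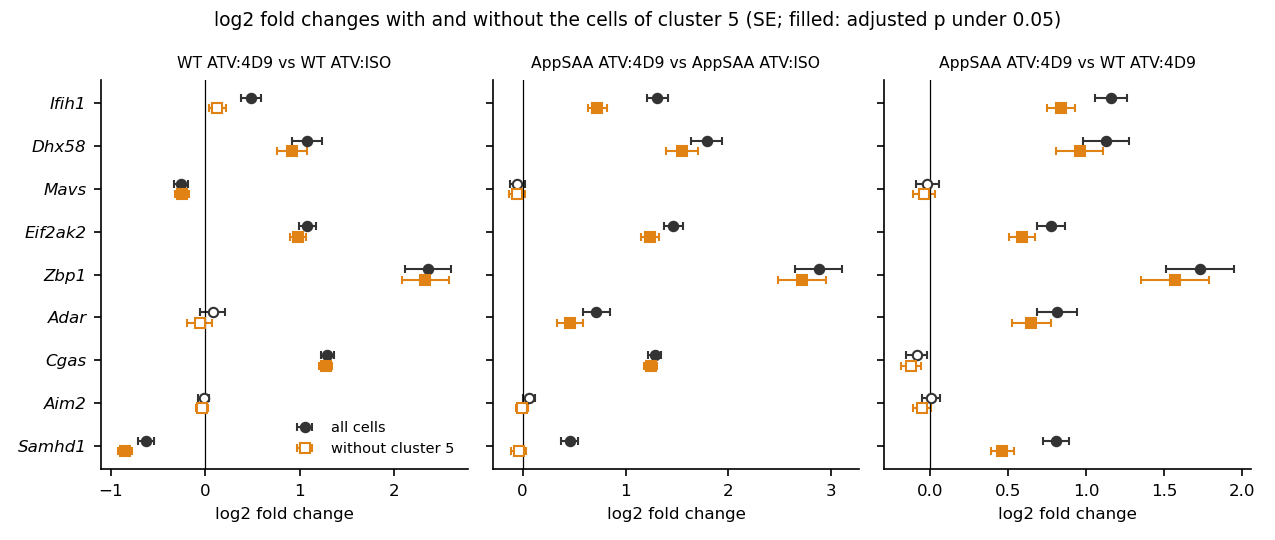
Log2 fold change of the 9 measured genes with all cells and without the cells of deposited cluster 5, for ATV:4D9 over ATV:ISO in WT mice, in AppSAA mice, and for AppSAA against WT mice under ATV:4D9, with SE bars and filled points for an adjusted p under 0.05. Samhd1 goes from 0.46 to −0.04 in AppSAA mice and Ifih1 from 0.48 to 0.13 in WT mice, while Cgas and Zbp1 move little.

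Within single clusters the sensor genes were also compared, on sums of at least 20 cells and at least 3 mice per group, over all genes of that cluster. In AppSAA mice, ATV:4D9 against ATV:ISO, the number of the 9 called higher was 1 in cluster 0 (0.530% of all genes), 4 in cluster 1 (0.920%), 6 in cluster 2 (6.89%), 3 in cluster 3 (3.37%), 5 in cluster 4 (13%) and 2 in cluster 5 (14.6%). Some sums were small. The ATV:ISO mice had 75 to 172 cells in cluster 2, 27 to 74 in cluster 4 and 46 to 233 in cluster 5. The ATV:4D9 mice had 37 to 195 cells in cluster 0 and 68 to 268 in cluster 3. Eif2ak2 was called in clusters 0 to 4, from 0.64 in cluster 3 to 0.98 in cluster 2, and Zbp1 in clusters 1 to 5, from 0.52 in cluster 5 to 2.26 in cluster 2. Dhx58 was called in clusters 1 to 4 (0.75 to 1.93) and Ifih1 in clusters 1, 2 and 4 (0.44 to 1.00). Cgas was called in clusters 2 (0.50), 4 (0.65) and 5 (0.66), and Adar in cluster 2 alone (0.54, edgeR adjusted p = 0.0436). Samhd1 was called in none of the 6, with differences from −0.19 to 0.36, and it was called in cluster 1 with the pool as a block (0.36, edgeR adjusted p = 0.00156), as was Adar there (0.33, 0.00716). Leaving out a mouse lost the call of Eif2ak2 in cluster 0 in 5 of 20 fits, that of Ifih1 in cluster 1 in 9 of 16, that of Adar in cluster 2 in 9 of 20, that of Dhx58 in cluster 4 in 4 of 16, and those of Dhx58 and Eif2ak2 in cluster 3 and Cgas in cluster 5 in 1 fit each. With limma-voom the calls of Adar in cluster 2 (adjusted p = 0.139) and Dhx58 in cluster 4 (0.117) were lost too.

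Between genotypes under ATV:4D9, 6 of the 9 were called higher in AppSAA mice in cluster 2 (1.94% of all genes) and in cluster 4 (2.49%), namely Zbp1, Dhx58, Ifih1, Adar, Eif2ak2 and Samhd1. This contrast compares the genotypes under ATV:4D9 alone. The difference between genotypes in the effect of ATV:4D9 could be fitted in clusters 0, 2 and 3. There edgeR called 0 of the 9 in each cluster, with 0, 5 and 2 at an unadjusted p under 0.05. Of all genes it called 0 of 11691 in cluster 0 and 15 of 9618 in cluster 2. In cluster 4, whose leading list was the cell cycle, Ifih1 was at 21.5, 17.1, 20.4 and 20.7 CPM in WT and 34.3, 32.3, 45.2 and 37.4 CPM in AppSAA mice, without overlap, a difference of 0.98 ± 0.13 (edgeR adjusted p = 1.86e-05). Zbp1 there was at 23.8, 10.6, 15.8 and 19.9 CPM against 61.7, 50.1, 68.1 and 52.5 CPM, a difference of 1.80 ± 0.20 (edgeR adjusted p = 3.46e-06). Samhd1 was at 31.8, 30.5, 34.5 and 34.3 CPM against 41.7, 41.6, 48.4 and 44.0 CPM, a difference of 0.50 ± 0.11 (edgeR adjusted p = 0.00636). In cluster 2 the call of Samhd1 was lost in 2 of the 20 fits that left out a mouse (edgeR adjusted p up to 0.0573), without the pool 2 mouse of WT ATV:4D9 or the pool 3 mouse of AppSAA ATV:4D9, and that of Eif2ak2 in 1 (0.0581), without the pool 3 mouse of WT ATV:4D9. The cluster 4 sums rested on 1357 to 1862 cells per WT mouse and 445 to 1438 cells per AppSAA mouse. Those of cluster 2 rested on 1339 to 2186 and 818 to 1971 cells.

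In the other clusters fewer genes were called between genotypes. Cluster 3 had 2 (0.138% of all genes), Zbp1 at 1.45 and Ifih1 at 0.69, both with edgeR adjusted p = 0.0495. Each was called in 8 of the 20 fits that left out a mouse, and limma-voom called 0. Cluster 0 had 0 by edgeR (0.154%), with 3 at an unadjusted p under 0.05, and 2 with the pool as a block, Zbp1 (1.57, edgeR adjusted p = 0.0270) and Eif2ak2 (0.56, 0.0466). In cluster 5 itself 0 were called higher in AppSAA mice (3.64% of all genes) and 1, Cgas, lower (2.79%). Cgas in that cluster was at 120, 147, 118 and 112 CPM in WT and 86.2, 81.8, 72.8 and 81.1 CPM in AppSAA mice, without overlap, and was lower by −0.54 ± 0.15 on the log2 scale (edgeR adjusted p = 0.0314). This call was lost in 5 of 17 fits that left out a mouse, those of pools 1 and 2 in WT and pools 2, 3 and 4 in AppSAA ATV:4D9 mice. With the block, Ifih1 (−0.28, edgeR adjusted p = 0.0442) and Samhd1 (−0.21, 0.0487) were called lower there too, as was Aim2 (−0.24).

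In WT mice, ATV:4D9 against ATV:ISO could be fitted in clusters 0, 2 and 3 alone. In clusters 4 and 5 fewer than 3 ATV:ISO mice had 20 cells, and in cluster 1 only 1 ATV:4D9 mouse did. Cgas rose in cluster 2 by 0.65 (edgeR adjusted p = 0.0272), where 1 of the 9 was called higher (3.19% of all genes), and in cluster 3 by 0.45 (0.0162). In cluster 3, 2 of the 9 were called (4.15%), with Eif2ak2 at 0.59 (0.0119), and in cluster 0 edgeR called 0 (1.02%), with 3 at an unadjusted p under 0.05. The other genes called over the whole mouse were called by edgeR in none of these 3 clusters. Ifih1 ran from −0.36 to −0.05, Zbp1 from 0.18 to 0.69 and Dhx58 from 0.34 to 0.65. Samhd1 ran from −0.25 to −0.16 and Mavs from −0.33 to 0.05. The cluster 2 sums of WT ATV:ISO mice held 23 to 42 cells, against 1339 to 2186 with ATV:4D9, and limma-voom called 0 there. Leaving out a mouse lost the call of Cgas in cluster 2 in 3 of 20 fits and in cluster 3 in 4, and that of Eif2ak2 in cluster 3 in 1. Between AppSAA and WT mice under ATV:ISO, edgeR called 0 of the 9 in cluster 0 (0.274%), cluster 1 (1.23%), cluster 2 (0.281%) and cluster 3 (0.189%), with 3, 2, 0 and 3 at an unadjusted p under 0.05. With the block, Zbp1 (0.59, edgeR adjusted p = 0.0270) and Eif2ak2 (0.26, 0.0116) were called in cluster 0, Samhd1 (−0.71, 0.0182) in cluster 1, and Ifih1 (0.29, 0.0490) and Eif2ak2 (0.39, 0.0183) in cluster 3.

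The rest of the pathways, in 7 lists chosen by function, are given for ATV:4D9 against ATV:ISO. Of all genes, 30.8% were called higher and 32.5% lower in WT mice, and 27.9% and 27.1% in AppSAA mice, and these shares are the background of every list. Of 15 genes of RNA sensing and signalling, 8 were called higher and 4 lower in WT mice, and 9 and 3 in AppSAA mice, with medians of 0.42 and 0.55, against −0.05 and −0.03 over all genes. Ddx58, which encodes RIG-I, the receptor of short RNA with a triphosphate end, was at 0.17 in WT, which was not called, and rose by 1.26 in AppSAA mice, with a called difference of 1.09 between genotypes. Irf7, the interferon-induced amplifier of interferon transcription, rose by 2.08 and 3.16. Irf3, which acts directly below the sensors, fell by 0.36 and by 0.20, and the kinase gene Tbk1 fell by 0.24 in WT and was at −0.02 in AppSAA mice, where it was not called. Per cell, Irf3 had 0.417 and 0.585 UMIs with ATV:ISO and ATV:4D9 in WT mice and 0.436 and 0.536 in AppSAA mice, and Tbk1 had 0.465 and 0.710, then 0.470 and 0.655, so the lower shares did not come with lower means per cell.

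Of 22 genes of DNA sensing and the inflammasome, 13 were called higher and 4 lower in WT mice, and 17 and 0 in AppSAA mice, with medians of 0.69 and 0.68. Tmem173, which encodes STING, the receptor of the cGAS product, fell by 0.56 in WT and was at −0.04 in AppSAA mice, with a called difference of 0.52 between genotypes. These are shares of the total: Tmem173 had 2.48 and 3.01 UMIs per cell with ATV:ISO and ATV:4D9 in WT mice and 1.98 and 2.72 in AppSAA mice. Pycard, the adaptor that AIM2 recruits, rose by 0.51 in both. Casp1, the inflammasome protease, fell by 0.17 in WT and rose by 0.24 in AppSAA mice, with a called difference of 0.41, and had 0.398 and 0.640, then 0.448 and 0.745, UMIs per cell. The largest rise of this list in AppSAA mice was that of Ifi211 (3.38), of the AIM2-like receptor family.

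The oligoadenylate synthetase list (8 genes) had 7 called higher and 0 lower in WT mice and 8 and 0 in AppSAA mice, with medians of 1.75 and 2.50 and Oasl1 at 2.92 and 3.96. Of 5 genes of ZBP1-dependent death, 3 were called higher in each genotype and 1 lower in WT mice (medians 0.41 and 0.30), among them Ripk3 (1.22 and 1.15), the kinase that ZBP1 recruits, and Mlkl (1.86 and 2.76), the executioner of necroptosis. Of 9 genes around PKR and translation control, 3 were called higher and 4 lower in WT mice and 3 and 2 in AppSAA mice (medians −0.15 and −0.08), near the shares over all genes. Of 13 nucleases and RNA turnover genes the counts were 6 and 2, and 5 and 3 (medians 0.22 and −0.03). Of 15 tested interferon ligands, receptors and reporters, 12 were called higher and 1 lower in WT mice, and 13 and 1 in AppSAA mice, with the largest medians, 2.38 and 2.85. Ifnb1, the interferon-β ligand, was rare, at 0.00208 UMIs per cell in WT ATV:ISO and 0.0431 in WT ATV:4D9 mice, 0.00357 in AppSAA ATV:ISO and 0.106 in AppSAA ATV:4D9 mice, and rose in both genotypes. Between genotypes in the effect of ATV:4D9, where 3.79% of all genes were called higher and 5.35% lower, the called genes were 3 higher and 0 lower of 15 for RNA sensing, 6 and 0 of 22 for DNA sensing, 1 and 3 of 13 for nucleases, 1 and 0 of 8 for the synthetases, 1 and 0 of 9 around PKR, 0 and 0 of 5 for ZBP1-dependent death, and 3 and 0 of 15 for interferon. In none of the 7 lists was a gene called by edgeR between 4D9 and ATV:ISO, where 0 of all 14058 genes were called, so this says nothing particular about the lists.

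The genes whose mean profile over the 5 groups was most like that of a sensor were searched among 8019 genes, by the root mean square difference of centred log2 CPM. Nearest to Ifih1 was Ddx60 (0.036), to Dhx58 it was Slfn2 (0.074), to Zbp1 it was Usp18 (0.087), to Eif2ak2 it was Tor3a (0.081) and to Cgas it was Mycbp (0.038). A profile of 5 group means shares the same 20 mice for all genes, and nearness in it is a description. Beside the sensors, 12 interferon-stimulated genes that include none of them summed to 496 to 593 CPM in WT ATV:ISO, 2217 to 3304 in WT ATV:4D9, 705 to 847 in AppSAA ATV:ISO, 647 to 802 in AppSAA 4D9 and 4817 to 7116 CPM in AppSAA ATV:4D9 mice. Of 3 monocyte markers, the summed level was 9.28 to 12.8 CPM in AppSAA ATV:4D9 and 3.74 to 8.73 CPM in AppSAA ATV:ISO mice. Of these, Plac8 had 0.154 and 0.0163 UMIs per cell, while Ly6c2 had 0.00231 and 0.0104 and Ccr2 0.0356 and 0.0462. The 3 endothelial markers summed to 13.2 to 25.9 CPM in AppSAA ATV:4D9 and 37.5 to 52.2 CPM in AppSAA ATV:ISO mice. The part of these markers in the sensor results was not tested.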

How the data were processed

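Microglia of 20 mice were profiled by 10x 3′ single-cell RNA-seq in 4 CellPlex pools, each with 1 mouse of every group. Per the submitters' processing notes the authors used Cell Ranger 6.1.1 and mm10. They deposited a matrix of UMI counts per gene and cell without normalization, and an annotation that gives the mouse, arm, pool and cluster of every cell. The deposited percent of mitochondrial UMIs in that annotation was a check only. The counts of all 74758 cells sum to the deposited UMI totals. Which cells were removed before deposit, and how doublets were treated, is not given in the sources used here; every deposited cell was kept, with 521 to 59993 UMIs each. Library depth limits the rare transcripts, and intervals cover the spread between mice.

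The counts were added up over the cells of a mouse, and over those of a mouse in a cluster where it had at least 20 cells there. edgeR 4.0.16 in R 4.3.3 was run with TMM scaling, filterByExpr, a quasi-likelihood fit of all 5 groups without a pool term and Benjamini-Hochberg adjustment (threshold 0.05). Fold changes follow TMM scaling, while printed CPM uses plain totals, so the 2 can differ in size and, for small differences, in sign. The interaction is the effect of ATV:4D9 in AppSAA mice minus that in WT mice. Within clusters, a comparison needed 3 mice per group. The pool pairs the mice, since the deposited labels place 1 mouse of every group in each pool and deviations from group means correlated above 0.1 in 40 of 40 pairs of mice of a pool (0.175 to 0.601). Of 120 pairs of mice of different pools and groups, 28 correlated above 0.1, with a median of −0.196 and a maximum of 0.224. The scripts were tested on simulated counts with 200 changed genes. Alternatives were DESeq2 1.42.0, limma-voom (limma 3.58.1), DESeq2-type scaling, no filter, the pool as a block, each mouse left out, cells of 1000 to 25000 UMIs, cluster 5 left out, and a mean in which every cell has equal weight (log2 of mean CPM plus a pseudocount of 1).

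The sensor genes, the pathway and marker lists and the clusters were chosen with earlier results of these data known. Named pathway genes are those fixed by role together with the 5 largest called changes in each direction per comparison, of which the text gives some, and 1 is not reported here. Profile neighbours needed a mean of 10 CPM and a span of 1 on the log2 scale. Promoters and gene spans came from RefSeq and GENCODE tables of the same build.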

Additional observations from a re-analysis of the deposited data

Results flagged for a closer look

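Within groups of 4 mice, 5 of 45 sets of values held a mouse whose gap to its nearest neighbour exceeded Dixon's critical value at the 95% level, which chance gives in about 1 in 20. Dhx58 was highest in the WT ATV:4D9 mouse of pool 1 (24.0 CPM) and Cgas in the WT ATV:4D9 mouse of pool 2 (91.5 CPM). Samhd1 was lowest in that pool 2 mouse (42.6 CPM) and Aim2 in the WT ATV:4D9 mouse of pool 1 (68.2 CPM). Zbp1 was lowest in the AppSAA 4D9 mouse of pool 2 (8.30 CPM). Leaving out the pool 1 mouse of WT ATV:4D9 changed no call of ATV:4D9 against ATV:ISO for these genes in WT mice.

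The effect of ATV:4D9 differed between genotypes, by the test of the difference itself, for Samhd1 (1.09 on the log2 scale), Ifih1 (0.83), Dhx58 (0.71) and Adar (0.64). Those of Samhd1 and Ifih1 were called in all 20 fits that left out a mouse, that of Adar in 11 and that of Dhx58 in 6. These values are of whole-mouse sums, and the same test by edgeR within clusters 0, 2 and 3 called 0 of the 9 genes in each. Of all genes it called 0 of 11691 in cluster 0 and 15 of 9618 in cluster 2. The differences over these clusters were −0.01 to 0.47 (Samhd1), 0.39 to 0.94 (Ifih1), −0.22 to 1.59 (Dhx58) and 0.12 to 0.51 (Adar). An absent call there does not show that the effects were alike. No explanation was tested.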

How the results depend on the processing

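For single genes, direction and side of the threshold were kept in 603 recomputed results that left out no mouse, while 21 fell below the threshold, 11 newly passed it and 18 changed sign. With 1 mouse left out the numbers were 1841, 104, 5 and 21. The values below are edgeR log2 fold changes unless another tool is named.

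Taking the pool as a replicate block moved the genes called from 3960 to 7166 for AppSAA against WT under ATV:ISO, from 1661 to 4409 for AppSAA against WT under ATV:4D9 and from 1285 to 4284 for the interaction. Within clusters the block moved the sensor genes called from 1 to 2 in cluster 0, from 4 to 6 in cluster 1 and from 3 to 4 in cluster 3 for AppSAA ATV:4D9 against ATV:ISO, from 0 to 2 in cluster 0 and from 1 to 4 in cluster 5 for the genotypes under ATV:4D9, from 0 to 1 in cluster 0 and from 2 to 4 in cluster 3 for ATV:4D9 in WT, and from 0 to 2, 1 and 2 in clusters 0, 1 and 3 for the genotypes under ATV:ISO. Single calls gained with the block and not given above were Mavs in the interaction (0.20, adjusted p = 0.0228), Zbp1 in cluster 0 (1.30) and Ifih1 in cluster 3 (0.35) for AppSAA ATV:4D9 against ATV:ISO, and, for ATV:4D9 in WT, Aim2 in cluster 0 (0.31) and Samhd1 (−0.24) and Dhx58 (0.59) in cluster 3. The block changed no other call given here for the sensor genes. Calls over all genes rose with the block too. For AppSAA ATV:4D9 against ATV:ISO they went from 78 to 616 in cluster 0 and 175 to 946 in cluster 1. For ATV:4D9 in WT they went from 172 to 1048 in cluster 0 and 717 to 2040 in cluster 3. For the genotypes under ATV:ISO they went from 32 to 539, 160 to 347 and 22 to 191 in clusters 0, 1 and 3. Under ATV:4D9 they went from 18 to 218 in cluster 0. The gains thus do not set the sensor genes apart.

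DESeq2 called 1 gene in place of 0 for 4D9 against ATV:ISO. Without cluster 5, genes called for the genotypes under ATV:4D9 were 976, and with equal weight per cell 3146. The equal weight gave 810 genes for the interaction. Of 4 sensor genes called in the interaction, 2 were left without the filter and 2 without cluster 5, Dhx58 and Adar being lost in both. Dhx58 was also lost with DESeq2-type scaling (adjusted p = 0.0663) and limma-voom (0.0637), and Adar with equal weight (0.159). limma-voom called 0 in cluster 3 for the genotypes under ATV:4D9 and 0 in cluster 2 for ATV:4D9 in WT, and DESeq2-type scaling called 1 in cluster 1 for the genotypes under ATV:ISO.

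Signs turned in small values. For ATV:4D9 in WT, Adar was −0.0599 without cluster 5, and Aim2 was 0.0209 with DESeq2-type scaling, 0.0214 with DESeq2, 0.0543 without the filter and 0.0482 with cells of 1000 to 25000 UMIs. For AppSAA ATV:4D9 against ATV:ISO, Samhd1 was −0.0382 and Aim2 −0.0078 without cluster 5, and Aim2 was −0.111 with equal weight. For 4D9 against ATV:ISO, Samhd1 was 0.0331 without cluster 5. For ATV:4D9 against 4D9, Samhd1 was −0.0713 without cluster 5 and Aim2 −0.0548 with equal weight. For the genotypes under ATV:4D9, Mavs was 0.0032 with cells of 1000 to 25000 UMIs, and Aim2 was −0.00871 with DESeq2-type scaling, −0.00759 with DESeq2, −0.0018 without the filter, −0.0335 with those cells, −0.0532 without cluster 5 and −0.15 with equal weight. With equal weight the median over all genes was −0.13 for ATV:4D9 in WT (−0.05 otherwise), −0.16 for AppSAA against WT under ATV:ISO (−0.06) and −0.14 under ATV:4D9 (−0.01), and −0.13 for AppSAA ATV:4D9 against ATV:ISO (−0.03). It called Cgas lower in AppSAA mice under ATV:4D9 (−0.26, adjusted p = 0.00304) and under ATV:ISO (−0.16, 0.0421). The cause was not tested.

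Leaving out each mouse gave 3 to 6 sensor genes called for AppSAA against WT under ATV:ISO, 2 to 4 for the interaction, and 1103 to 1719 genes for the genotypes under ATV:4D9, the lowest without the AppSAA ATV:4D9 mouse of pool 3. Within clusters the ranges were 0 to 1 (cluster 0) and 1 to 2 (cluster 5) for AppSAA ATV:4D9 against ATV:ISO, 0 to 2 (cluster 3) and 0 to 1 (cluster 5) for the genotypes under ATV:4D9, and 0 to 1 (clusters 0 and 2) and 1 to 2 (cluster 3) for ATV:4D9 in WT. Signs turned for Aim2 in WT (−0.0333 to 0.0439), for Mavs (−0.0041 to 0.0893), Samhd1 (−0.0423 to 0.0412) and Adar (−0.13 to 0.0068) in 4D9 against ATV:ISO, for Mavs (−0.0665 to 0.0057) and Aim2 (−0.046 to 0.0309) in the genotypes under ATV:4D9, and for Cgas (−0.0781 to 0.0223) and Aim2 (−0.0042 to 0.10) in the interaction. Under ATV:ISO, the genotype call of Ifih1 was lost without the WT mouse of pool 1 or the AppSAA mouse of pool 3. That of Samhd1 was lost without the WT mice of pools 3 or 4 or the AppSAA mouse of pool 2. That of Mavs was lost without the WT mice of pools 1, 3 or 4, the AppSAA mice of pools 1 or 2, or the AppSAA ATV:4D9 mouse of pool 4. In the interaction, the calls of Dhx58 and Adar were both lost without the WT ATV:ISO mice of pools 3 or 4, the WT ATV:4D9 mice of pools 2 or 3, the AppSAA ATV:ISO mouse of pool 1 or the AppSAA ATV:4D9 mouse of pool 3. Within cluster 4, the call of Dhx58 for AppSAA ATV:4D9 against ATV:ISO was lost without the AppSAA ATV:ISO mice of pools 1, 2 or 4 or the AppSAA ATV:4D9 mouse of pool 1. In the same comparison cluster 3 lost Dhx58 without the AppSAA ATV:4D9 mouse of pool 1 and Eif2ak2 without that of pool 2, and cluster 5 lost Cgas without the AppSAA ATV:ISO mouse of pool 3. For ATV:4D9 in WT, Cgas was lost in cluster 2 without the ATV:ISO mice of pools 1, 2 or 3 and in cluster 3 without the ATV:ISO or ATV:4D9 mice of pools 3 or 4, and Eif2ak2 in cluster 3 without the ATV:4D9 mouse of pool 1. The 23 to 42 cells per WT ATV:ISO mouse in cluster 2 limit the comparisons there.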
